A study of Mus musculus with 12 samples.

Results

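Genes of DNA replication and mitosis were followed in sorted Pdgfra-positive cells of the mouse central nervous system. Pdgfra codes for the PDGF receptor alpha and marks oligodendrocyte precursor cells (OPCs) and, in the embryo, other progenitors and perivascular cells. The 41 genes were taken by name: 24 whose products act in mitosis and 17 whose products act at the start of DNA replication or supply its nucleotides. All 41 were found among the 47072 rows of the gene table, and all 41 were among the 18319 genes that reached 0.7 CPM (a gene's reads relative to the scaled library total) in at least 3 of the 12 libraries.

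Total RNA was sequenced from cells sorted for GFP from Pdgfra-H2BGFP mice, in which a histone-tagged GFP is expressed from the Pdgfra locus. There were 4 groups of 3 libraries each: brain (the forebrain, by the study's methods) and spinal cord, each taken from E13.5 embryos and from pups at postnatal day 7 (P7). Values by library are given for brain and then spinal cord, with replicates in their numbered order. All groups were heterozygous for the reporter by the study's methods, both sexes were used, and each library was a pool of animals, so p-values measure the spread between pools. Tissue was dissociated mechanically at E13.5 and with papain at P7, and age and dissociation cannot be told apart. The tagged histone can outlast Pdgfra RNA, so cells that have left the precursor state can remain in the gate. Libraries held from 12566345 to 38790312 reads assigned to genes.

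A cell that divides first licenses its replication origins in G1 by loading the MCM helicase, copies its DNA in S phase and then separates the chromosomes on a spindle. E2F factors drive many genes of origin licensing and S phase, whereas many mitosis genes carry a CHR element, which is bound by the DREAM and B-MYB complexes, and peak in G2 and M. OPCs go on dividing after birth and stop as they mature into myelinating oligodendrocytes. Transcripts of these genes come mostly from cycling cells, and in bulk RNA a smaller number of such cells and less RNA per cell cannot be told apart.

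The promoters of the 2 classes, which the choice of members did not use, held different motifs, given here as shares with no test. RefSeq promoter windows (GRCm38.p6, 250 bases before to 50 after the start of transcription) were matched by symbol for 34 of the 41 genes, 20 of mitosis and 14 of replication. No window was printed or searched for Aurkb, Ccna2, Ccne2, Gins2, Kif20a, Mcm4 and Tpx2. The motifs searched, on both strands, were the cell cycle genes homology region (CHR, TTTGAA), the CCAAT box (CCAAT) and an E2F site (TTTGGCGC, TTTCCCGC, TTTGCCGC or TTTCGCGC). A CHR was held by 15 of 20 mitosis windows (75%) and by 1 of 14 replication windows (7.14%), against 18.1% of the windows of 27025 genes. An E2F site was held by 6 of 14 replication windows (42.9%) and by 1 of 20 mitosis windows (5.0%), that of Cdk1, against 2.32% of all genes. A CCAAT box was common to both classes, with 18 of 20 mitosis windows (90%) and 9 of 14 replication windows (64.3%), against 37.9% of all genes. These are matches of letters and were not tested as binding sites.

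**Figure D1:**
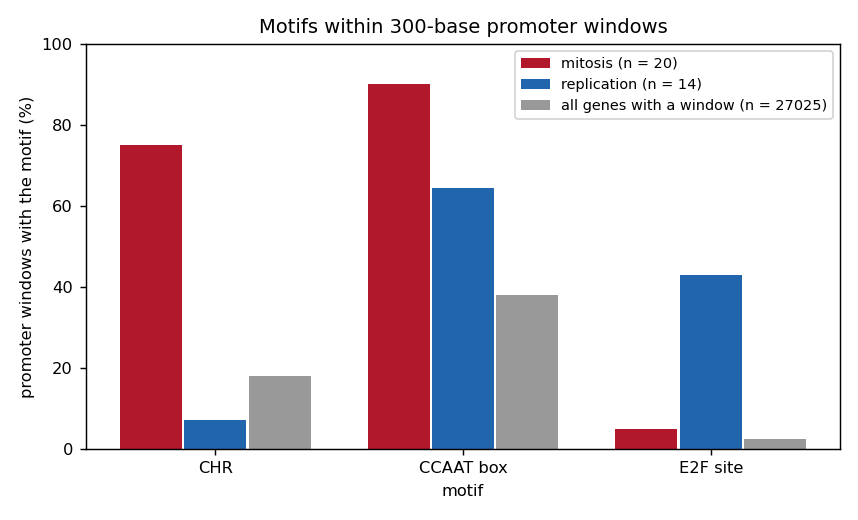
Share of 300-base promoter windows (vertical axis, percent) that hold at least 1 CHR, CCAAT box or E2F site, for the mitosis genes (n = 20), the replication genes (n = 14) and all genes with a window (n = 27025). The CHR bar is 75% for mitosis and 7.14% for replication, and the E2F bar is 5.0% and 42.9%.

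The 150 bases before the start are shown for genes of each class in which these bases hold the class's own motif and overlap no annotated exon, with 1 exception to the pattern. Capitals mark CHR, CCAAT and E2F matches, all on GRCm38.p6 and written 5′ to 3′ on the gene's strand. The mitosis genes are Mki67 (chr7:135716380-135716529, minus strand), Top2a (chr11:99024190-99024339, minus strand) and Kif11 (chr19:37376232-37376381, plus strand), each with a CHR and a CCAAT box.
Mki67: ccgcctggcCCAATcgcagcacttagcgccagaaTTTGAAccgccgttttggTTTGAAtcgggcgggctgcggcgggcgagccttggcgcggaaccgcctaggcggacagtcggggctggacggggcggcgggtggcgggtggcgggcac
Top2a: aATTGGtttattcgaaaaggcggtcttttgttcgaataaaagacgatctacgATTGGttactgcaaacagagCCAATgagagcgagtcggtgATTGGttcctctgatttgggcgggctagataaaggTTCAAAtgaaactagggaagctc
Kif11: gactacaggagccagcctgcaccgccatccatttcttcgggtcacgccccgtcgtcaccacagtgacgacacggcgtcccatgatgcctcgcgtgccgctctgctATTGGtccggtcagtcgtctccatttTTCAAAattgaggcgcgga

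The replication genes with an E2F site there are Mcm6 (chr1:128359706-128359855, minus strand), Mcm5 (chr8:75109359-75109508, plus strand) and Cdc6 (chr11:98908001-98908150, plus strand). The stretch of Cdc6 lies before its RefSeq start but inside the gene as annotated for the expression values (chr11:98907801-98923940). In Mcm6 the longest run of capitals is a pair of E2F matches that overlap on opposite strands, and the stretch of Mcm5 opens inside such a pair. Mcm2 (chr6:88898781-88898930, minus strand) is the exception shown, a replication gene with a CHR and no E2F match. It is not the only gene off the pattern, since 6 of 14 replication windows held an E2F site and 15 of 20 mitosis windows a CHR.
Mcm6: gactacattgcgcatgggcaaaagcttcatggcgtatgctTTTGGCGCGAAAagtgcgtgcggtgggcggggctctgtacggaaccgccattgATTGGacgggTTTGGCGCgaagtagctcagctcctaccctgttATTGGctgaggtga
Mcm5: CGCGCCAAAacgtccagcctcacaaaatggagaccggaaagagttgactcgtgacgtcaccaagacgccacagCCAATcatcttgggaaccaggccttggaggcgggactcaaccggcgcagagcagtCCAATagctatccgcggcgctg
Cdc6: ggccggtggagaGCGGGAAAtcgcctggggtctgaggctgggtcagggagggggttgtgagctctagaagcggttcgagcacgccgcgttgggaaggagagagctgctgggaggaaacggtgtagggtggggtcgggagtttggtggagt
Mcm2: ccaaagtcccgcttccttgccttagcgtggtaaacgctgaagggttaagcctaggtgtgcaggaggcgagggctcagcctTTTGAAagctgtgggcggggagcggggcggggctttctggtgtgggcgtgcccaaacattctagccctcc

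Transcripts of both classes were highest in E13.5 brain: by group mean this held for 41 of 41 genes. The lowest group was P7 brain for 24 genes and E13.5 spinal cord for the other 17, and after trimmed-mean (TMM) scaling of the libraries these numbers were 16 and 25. The summed CPM of the 24 mitosis genes at E13.5 was 3463 ± 143 in brain and 1491 ± 41.2 in spinal cord, and at P7 it was 1602 ± 185 and 2197 ± 102 (SD, n = 3 each). The summed CPM of the 17 replication genes was 1518 ± 105, 740.3 ± 90.8, 750.3 ± 108 and 1056 ± 30.5 in the same order. In both classes the brain therefore stood above the spinal cord at E13.5 and below it at P7, and the 3 libraries of each region did not overlap at either age.

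**Figure D2:**
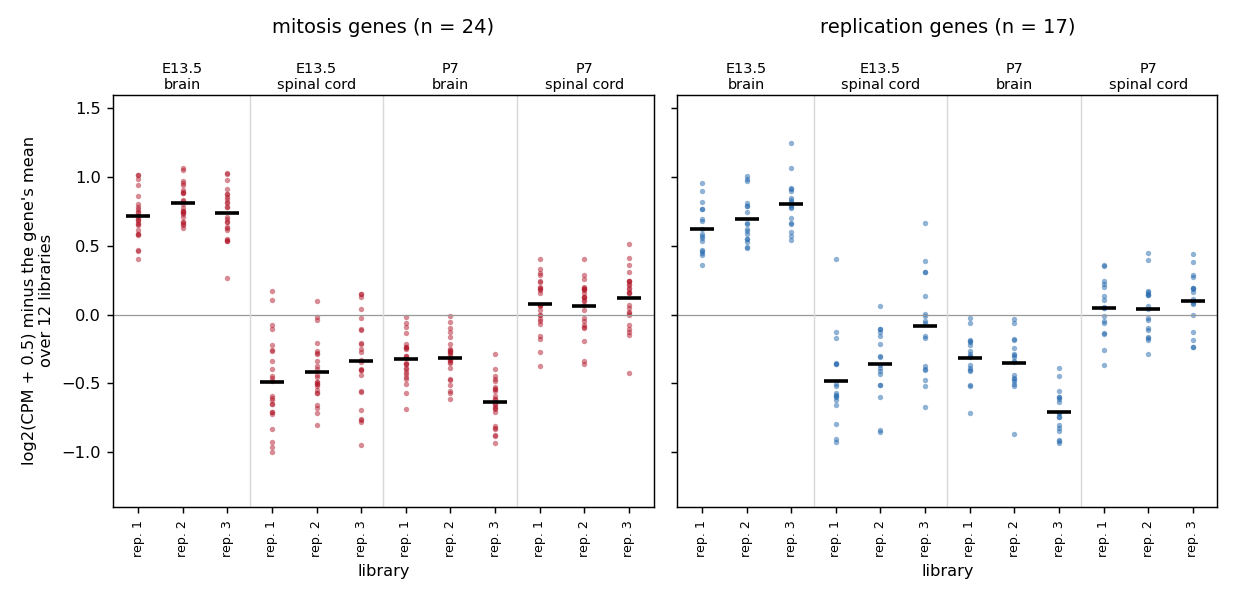
Level of each gene in each library as log2(CPM + 0.5) minus that gene's mean over 12 libraries (vertical axis), for 24 mitosis and 17 replication genes. Each dot is 1 gene and the black bar is the class mean. The bars are highest in E13.5 brain, P7 spinal cord lies between, and P7 brain replicate 3 is the lowest library of its group in both panels.

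The balance between the classes was similar in 3 of the groups and less uniform in the remaining one, E13.5 spinal cord. The mean log2(CPM + 0.5) of replication genes minus that of mitosis genes ranged at E13.5 from -0.64 to -0.46 in brain, while the spinal cord range was -0.52 to -0.28. At P7 it ranged from -0.60 to -0.52 in brain, and the spinal cord libraries lay between -0.56 and -0.55. These ranges overlap except that the P7 spinal cord libraries fall outside the E13.5 spinal cord range. The highest value was that of E13.5 spinal cord replicate 3.

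That library stood apart from the other 11. Protein-coding genes took 40.9% of its reads, against 82.4% to 91.1% in the others, and a single non-coding gene, Gm42418, took 31.1%. Of the 17 replication genes 11 were highest there among the 3 E13.5 spinal cord libraries and 1 was lowest, and of the 24 mitosis genes 14 were highest and 10 lowest. P7 brain replicate 3 also differed from its group: 24 of 24 mitosis and 17 of 17 replication genes were lowest in it. The summed CPM of 12 markers of committed and myelinating oligodendrocytes was 4116 in that library and 1717 and 1708 in the other P7 brain libraries, and the part of these cells in its low values was not tested.

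At P7 replicates 1 and 2 were closer to each other than to replicate 3. The SD of their log2 ratio over 5717 genes with at least 1000 reads on average was 0.0687 in brain and 0.0747 in spinal cord, against 0.22 to 0.24 for pairs with replicate 3, and against 0.0462 and 0.0408 for read sampling alone. If replicates 1 and 2 were not independent pools, the P7 p-values would be too small, and the labels do not settle this. A fit with the 2 averaged is given among the alternatives.

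The sort is shown by Pdgfra itself, at 341 to 787 CPM over the E13.5 libraries and 2014 to 3402 CPM over those of P7. The 7 OPC markers summed to 10408 to 11448 CPM over the 6 P7 libraries, where the markers differed in direction between regions. Mean Pdgfra and Ptprz1 were 3127 and 2727 CPM in P7 brain against 2089 and 1822 in P7 spinal cord. Sox10 had means of 421 against 669, and Gpr17 libraries were at 2720 to 3172 against 3742 to 3799. Of the 7 markers 0 were called between the P7 regions. At E13.5 the 7 summed to 1258 to 2352 CPM in the brain libraries and to 631 to 1062 in those of spinal cord. At that age the 9 pericyte and leptomeningeal markers summed to more than the OPC markers did in every library, 6059 to 9172 CPM in brain and 11557 to 12960 in spinal cord, so the E13.5 samples are named here by their sort and not as OPCs. The summed CPM of radial glia and astrocyte markers at E13.5 was 2246 to 2778 in brain and 1661 to 1906 in spinal cord. At P7 it was 1326 to 1791 in brain and 935 to 1007 in spinal cord, and the part of these cells in the member differences was not tested. Over the 12 libraries neuron markers summed to 444 to 1123, while microglia, endothelial and red cell markers each summed to at most 128.

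The first comparison asked how brain and spinal cord differed at E13.5. Of the 41 genes 29 were higher in brain by more than 2-fold with a Benjamini-Hochberg adjusted p under 0.05 (limma on log2(CPM + 0.5), all 12 libraries, 18319 genes), 20 of 24 mitosis and 9 of 17 replication genes. Among all genes tested 3.53% were called higher in brain and 5.17% higher in spinal cord, and no member was called higher in spinal cord by limma, limma-voom, edgeR or DESeq2, while 41 of 41 were higher in brain at an unadjusted p under 0.05 in limma, as were 23.6% of all genes. The median log2 difference, brain minus spinal cord, was 1.16 for mitosis and 1.01 for replication genes, with 0.05 for all genes. Every brain library lay above every spinal cord library for 40 genes, an arrangement found for 20.5% of all genes. The exception was Ccne2. Without E13.5 spinal cord replicate 3 the number called was 32, 20 of mitosis and 12 of replication. At the same age 5 of 7 OPC markers were called higher in brain. The pericyte and leptomeningeal markers, none of them at 0, had the higher sum in spinal cord, with 4 of 9 called higher there and 0 in brain. Their median log2 level was 8.11 to 8.80 in the brain libraries and 7.92 to 8.46 in those of spinal cord. The part of either list in the E13.5 differences was not tested.

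The 12 genes not called at E13.5 were all higher in brain by less than 2-fold. They were Ccnb2, Plk1, Cenpa and Kif23 of the mitosis genes and Cdt1, Mcm2, Mcm6, Mcm7, Gins2, Ccne1, Ccne2 and E2f1 of the replication genes, with log2 differences from 0.66 to 0.995. Of these only Ccne2 had an adjusted p above 0.05.

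The second comparison asked the same at P7. All 41 differences were negative, that is, higher in spinal cord, with medians of -0.55 for mitosis and -0.51 for replication genes, though median-ratio scaling and DESeq2 each turned 1 of them, Cenpe, to 0.04. None passed the 2-fold threshold in limma, limma-voom, edgeR or DESeq2, where 4.35% of all genes were called higher in spinal cord and 2.27% higher in brain. By an unadjusted p under 0.05, 38 of the 41 were lower in brain, against 33.1% of all genes. By the adjusted p alone 32 were, 19 mitosis and 13 replication genes, against 24.2% of all genes. The 9 others were Mki67, Cenpe, Cenpf, Kif11, Kif23, Gins2, Rrm1, Tyms and Ccne2. Every spinal cord library lay above every brain library for 41 of 41, a pattern that 49.4% of all genes shared.

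The size of the P7 difference depended on the scaling of the libraries. The deposited CPM of the 3 P7 brain libraries carry scaling factors 13.1% to 16.3% above those that TMM normalisation of the same reads gives, and the median log2 difference of all genes at P7 was -0.19. After TMM scaling that median was -0.02, the member medians were -0.36 and -0.33, and the adjusted p alone called 11 genes lower in brain, 9 mitosis and 2 replication, against 9.53% of all genes. Every spinal cord library then lay above every brain library for 30 of 41 genes, an order that 29% of all genes shared. The markers of committed and myelinating oligodendrocytes were also higher in P7 spinal cord, with 10 of 12 called, and their summed CPM was 18565 to 24675 there against 1708 to 4116 in P7 brain, with none of the 12 at 0. Their part in the P7 values was not tested.

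The region difference was tested for a change from the embryonic to the postnatal age. This is not a test of a change of sign, since a difference that only shrinks can also pass it. The region difference fell for 41 of 41 genes by more than 2-fold at an adjusted p under 0.05 in limma, while 9.66% of all genes fell and 6.66% rose. The median change was -1.70 for mitosis and -1.50 for replication genes on the log2 scale, beside -0.24 for all genes. The quartiles were -1.82 and -1.54 for mitosis and -1.65 and -1.36 for replication, which overlap in part and lie lower for mitosis. The full range of the mitosis genes, -2.21 to -1.23, lay within that of the replication genes, -2.49 to -1.10. The difference between the classes was not tested. The largest falls were those of Rrm2 at -2.49 and Ube2c at -2.21, and the smallest those of Mcm6 at -1.10, Ccne2 at -1.12 and Ccne1 at -1.17. After TMM scaling 38 were called, without Mcm6, Ccne1 and Ccne2, and the medians were -1.51 and -1.31. Without P7 brain replicate 3, 39 were called, and without E13.5 spinal cord replicate 3, 41. At P7 itself no gene passed the 2-fold threshold. The 2 region comparisons and the 2 age comparisons are made from the same 12 libraries and are not independent of this one.

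**Figure D3:**
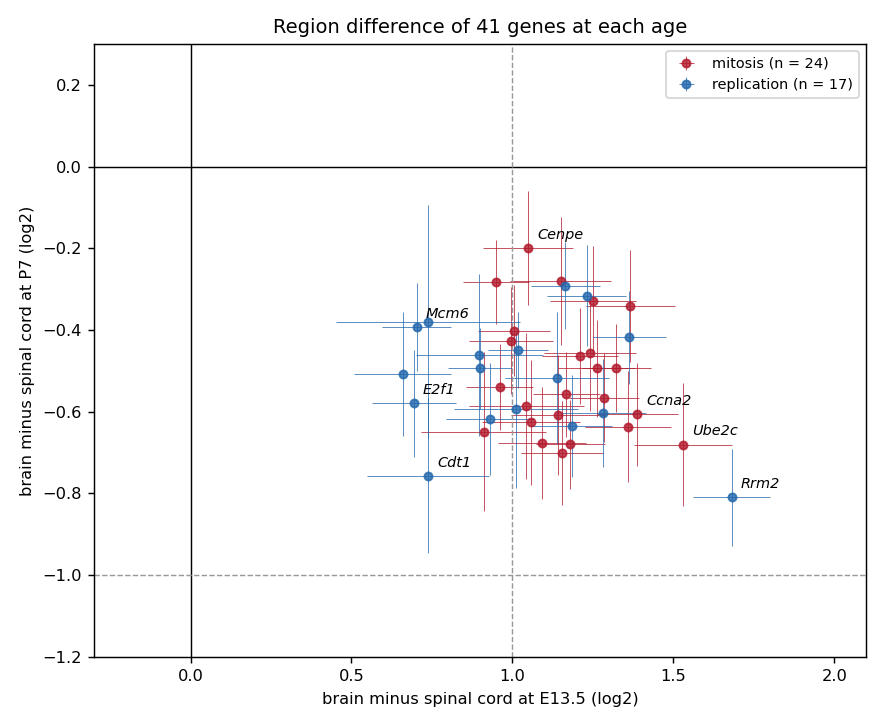
Log2 difference of brain minus spinal cord at E13.5 (horizontal axis) against that at P7 (vertical axis) for 24 mitosis (red) and 17 replication (blue) genes, with bars of 1 SE, solid lines at 0 and dashed lines at 2-fold. All points lie to the right of 0 and below 0, Rrm2 is the farthest from both lines, and no point passes the 2-fold line at P7.

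By age, the differences were negative for 41 of 41 genes in brain and positive for 34 of 41 in spinal cord, where Ccne2 and some others near 0 changed sign under some alternatives. In brain 30 of 41 genes were lower at P7 than at E13.5, 19 mitosis and 11 replication, against 16.7% of all genes, and 11% of all genes were higher. The medians were -1.14 and -1.18, with -0.19 for all genes, and every P7 brain library lay below every E13.5 brain library for 41 of 41 genes, as for 44.9% of all genes. This count followed the scaling: 17 genes were called after TMM scaling, with medians of -0.95 and -0.99, and 24 without P7 brain replicate 3. In spinal cord 3 genes were called higher at P7, Ccna2, Pcna and Rrm2, against 16.9% of all genes called higher and 18.2% lower, so the members' share was below that of all genes. The medians there were 0.57 and 0.39, with 0.12 for all genes, and with median-ratio scaling that of the replication genes was 0.25 and that of all genes -0.0027.

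By the adjusted p alone 26 genes were higher and 2 lower in P7 than in E13.5 spinal cord, where 39.1% and 30.9% of all genes were. The 2 lower genes were Kif23, a motor of the spindle midzone, at -0.44 ± 0.10 (SE, adjusted p = 0.0019), and E2f1. Every P7 library was above every E13.5 library for 27 genes, against 39.9% of all genes. Without E13.5 spinal cord replicate 3, 6 genes were called higher in place of 3.

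**Figure D4:**
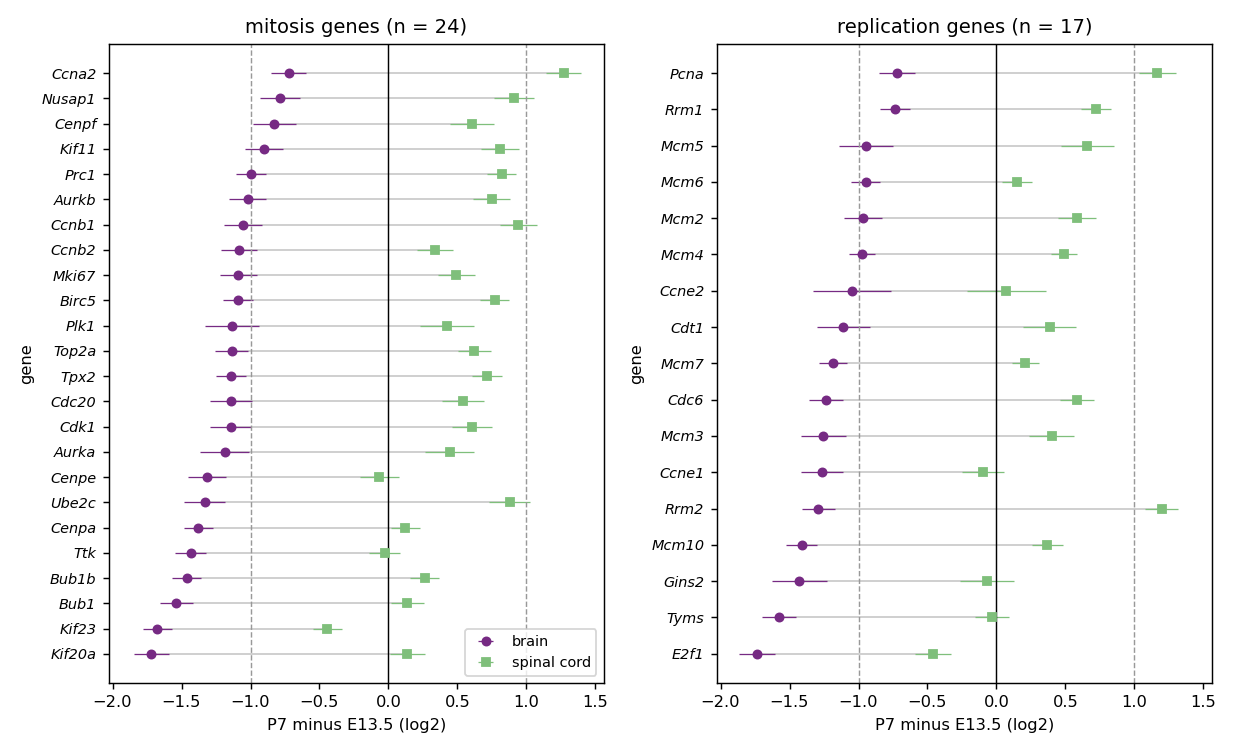
Log2 difference of P7 minus E13.5 (horizontal axis) for each gene (vertical axis) in brain (circles) and spinal cord (squares), joined by a grey line, with bars of 1 SE and dashed lines at 2-fold. The circles all lie below 0, 3 squares lie beyond the upper 2-fold line, and Kif23 and E2f1 have the lowest squares.

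For both proliferation markers the brain was above the spinal cord at E13.5 and the region difference fell by P7. Top2a (ENSMUSG00000020914, chr11:98992943-99024189), a topoisomerase that untangles DNA before chromosomes separate, was at 664, 695 and 620.4 CPM in brain and 286, 275 and 264 in spinal cord at E13.5, while at P7 brain had 329, 323 and 254 CPM and spinal cord had 407, 408 and 454. E13.5 brain was far above the other groups, and P7 spinal cord came next without overlap with either remaining group. The region difference was 1.26 ± 0.12 (SE, adjusted p = 7.6e-06) at E13.5 and -0.49 ± 0.12 (SE, adjusted p = 0.0082) at P7, and its change was -1.76 ± 0.17 (SE, adjusted p = 1.4e-05). Mki67, the antigen that coats mitotic chromosomes, had a change of -1.58, with a P7 difference of -0.33 ± 0.13 (SE, adjusted p = 0.085). Per kilobase of exon the pair were the most abundant of all 41 in E13.5 brain, Top2a at 73.2 and Mki67 at 66.05 CPM per kb, followed by Pcna at 63.1.

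Of the mitotic cyclins and their kinase Cdk1, 3 of 4 were called higher in E13.5 brain, and the region difference fell in 4 of 4. Ccna2 (ENSMUSG00000027715, chr3:36564865-36572150), the cyclin of S phase and early mitosis, was at 149.8, 173 and 157 CPM in brain and 53.8, 61.9 and 66.8 in spinal cord at E13.5, while at P7 brain had 107, 107 and 77.9 CPM and spinal cord had 143, 143 and 155. P7 spinal cord lay close under E13.5 brain, and 1 of its libraries was within the E13.5 brain range. The age difference was -0.72 ± 0.13 (SE, adjusted p = 3.0e-04) in brain and 1.27 ± 0.13 (SE, adjusted p = 1.7e-06) in spinal cord, the latter the highest of the 41. Ccnb1 (ENSMUSG00000041431, chr13:100778650-100786570), the cyclin that turns Cdk1 on at the entry to mitosis, was at 128, 143 and 149.9 CPM in brain and 44.6, 53.2 and 67.2 in spinal cord at E13.5, while at P7 brain had 72.4, 71.3 and 58.4 CPM and spinal cord had 105, 102 and 106. The brain was above the spinal cord in each library at E13.5 and below it in each at P7. Its region difference went from 1.36 ± 0.13 (SE, adjusted p = 1.2e-05) to -0.64 ± 0.13 (SE, adjusted p = 0.0039). Ccnb2 and Cdk1 changed by -1.42 and -1.75.

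For the 6 mitotic kinases and checkpoint genes the region difference fell, with changes from -1.77 to -1.41. Bub1b (ENSMUSG00000040084, chr2:118598211-118641591), which codes for the BubR1 checkpoint kinase, was at 103, 110.5 and 118 CPM in brain and 47.2, 49.7 and 49.9 in spinal cord at E13.5, while at P7 brain had 44.2, 42.8 and 33.3 CPM and spinal cord had 59.4, 56.5 and 60.4. P7 brain was the lowest group and P7 spinal cord stood just above E13.5 spinal cord. The region difference was 1.17 ± 0.10 (SE, adjusted p = 4.8e-06) at E13.5 and -0.56 ± 0.10 (SE, adjusted p = 0.0018) at P7. Aurkb (ENSMUSG00000020897, chr11:69045647-69051664), the kinase of the chromosomal passenger complex, was at 40.9, 41.02 and 37.7 CPM in brain and 16.3, 17.3 and 22.3 in spinal cord at E13.5, while at P7 brain had 21.6, 21.2 and 15.8 CPM and spinal cord had 32.7, 31.6 and 29.6. The lowest P7 brain value lay below all 3 E13.5 spinal cord values, and the other 2 lay among them. Its region difference of 1.09 ± 0.14 (SE, adjusted p = 7.7e-05) at E13.5 became -0.68 ± 0.14 (SE, adjusted p = 0.0029).

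Of the 4 centromere and chromosomal passenger genes 3 were called higher in E13.5 brain, and the region difference fell in 4. Cenpf (ENSMUSG00000026605, chr1:189640606-189688086), a kinetochore protein, was at 230.4, 235 and 159 CPM in brain and 111, 91.97 and 76.4 in spinal cord at E13.5, while at P7 brain had 120.1, 118 and 108 CPM and spinal cord had 135, 135 and 150.1. E13.5 brain replicate 3 was well below the other brain libraries, and the P7 regions were closer together than for most members. The P7 difference of Cenpf was -0.28 ± 0.16 (SE, adjusted p = 0.2) and the change -1.43 ± 0.22 (SE, adjusted p = 3.6e-04). Birc5 (ENSMUSG00000017716, chr11:117849251-117855743), or survivin, a passenger protein that holds Aurkb at the centromere, was at 41.5, 42.03 and 39.4 CPM in brain and 18.1, 18.05 and 17.2 in spinal cord at E13.5, while at P7 brain had 19.3, 21.9 and 16.1 CPM and spinal cord had 30.2, 29.1 and 32.9. E13.5 spinal cord lay inside the range of P7 brain at the bottom, and P7 spinal cord lay between these and E13.5 brain. The region difference of Birc5 was 1.18 ± 0.11 (SE, adjusted p = 6.0e-06) at E13.5 and -0.68 ± 0.11 (SE, adjusted p = 6.0e-04) at P7. Cenpa and Cenpe, of the centromeric nucleosome and the kinetochore motor, changed by -1.50 and -1.25, and Cenpe had the P7 difference nearest to 0, -0.20.

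The 6 spindle and midzone genes ranged from -1.85 to -1.23 in their change. Kif11 (ENSMUSG00000012443, chr19:37376403-37421859), the motor that pushes the spindle poles apart, was at 203, 231 and 182 CPM in brain and 90.5, 84.1 and 64.5 in spinal cord at E13.5, while at P7 brain had 117, 117 and 94.6 CPM and spinal cord had 131, 137 and 148. P7 brain was above E13.5 spinal cord in each library. Its differences were 1.37 ± 0.14 (SE, adjusted p = 1.3e-05) at E13.5 and -0.34 ± 0.14 (SE, adjusted p = 0.081) at P7. Kif20a (ENSMUSG00000003779, chr18:34624613-34633277), a midzone motor of cytokinesis, was at 86.98, 82.3 and 89.3 CPM in brain and 33.1, 35.96 and 47.7 in spinal cord at E13.5, while at P7 brain had 26.9, 28.3 and 22.6 CPM and spinal cord had 42.3, 40.996 and 43.5. P7 brain was below every other group, and the 2 spinal cord groups overlapped. The age difference of Kif20a was -1.72 ± 0.13 (SE, adjusted p = 1.7e-07) in brain and 0.14 ± 0.13 (SE, adjusted p = 0.36) in spinal cord. Kif23, Nusap1, Tpx2 and Prc1 are the others of this group, and Kif23 and Kif20a had the largest falls in brain of the mitosis genes.

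Both partners of the anaphase-promoting complex, the ligase that ends mitosis, were called at E13.5 and had a fall in the region difference. Cdc20 (ENSMUSG00000006398, chr4:118432901-118437352), its activator, was at 64.5, 71.9 and 69.6 CPM in brain and 25.7, 31.1 and 43.9 in spinal cord at E13.5, while at P7 brain had 30.7, 33.9 and 28.2 CPM and spinal cord had 49.1, 46.6 and 47.96. E13.5 spinal cord was spread widely, its highest library near the P7 spinal cord values. The region difference of Cdc20 was 1.06 ± 0.15 (SE, adjusted p = 2.2e-04) at E13.5 and -0.63 ± 0.15 (SE, adjusted p = 0.0086) at P7. Ube2c (ENSMUSG00000001403, chr2:164769898-164778822), its ubiquitin-conjugating enzyme, was at 39.6, 49.3 and 42.4 CPM in brain and 11.8, 14.7 and 18.6 in spinal cord at E13.5, while at P7 brain had 18.3, 18.4 and 14.6 CPM and spinal cord had 27.8, 26.9 and 27.9. Its P7 spinal cord libraries lie close together between the brain groups. The region difference of Ube2c was 1.53 ± 0.15 (SE, adjusted p = 1.1e-05) at E13.5, the highest of the mitosis genes, and its change was -2.21 ± 0.21 (SE, adjusted p = 1.4e-05).

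**Figure D5:**
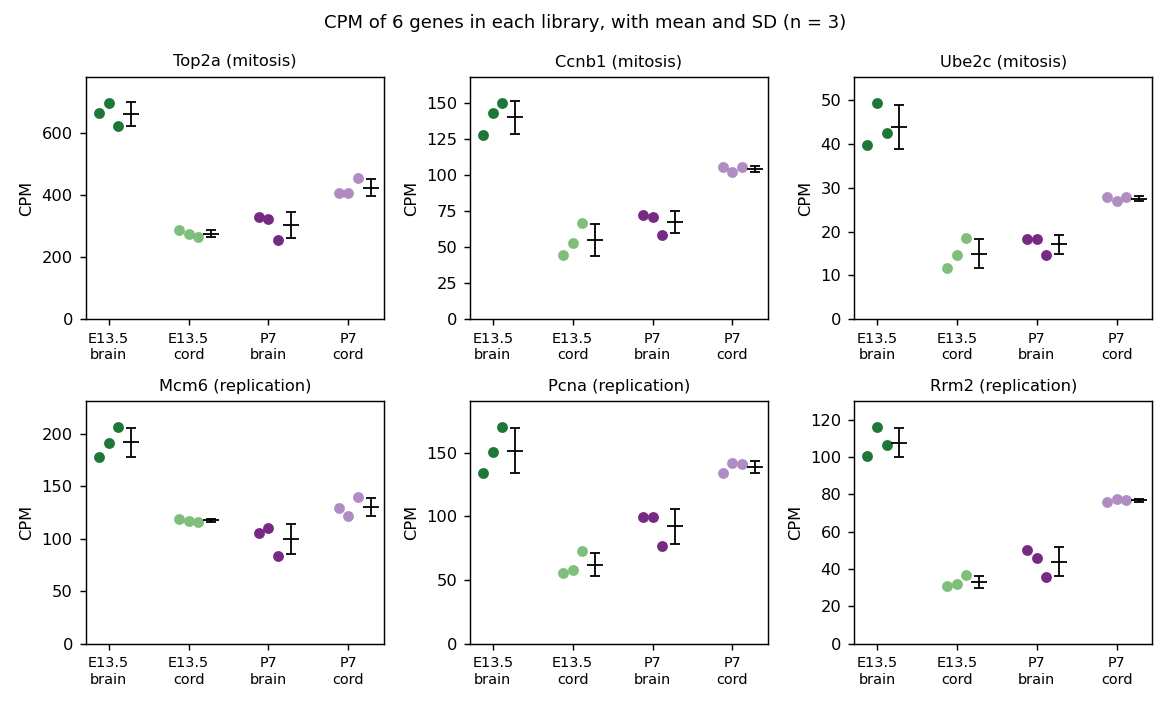
CPM (vertical axis, from 0) of 3 mitosis and 3 replication genes in each library of the 4 groups, with the mean and SD of 3 libraries beside the dots. In each panel E13.5 brain is highest and P7 brain lies below P7 spinal cord, and Rrm2 and Ube2c have the highest E13.5 ratio of brain to spinal cord in their class.

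The 8 origin licensing genes had a median E13.5 log2 difference of 0.97, and Cdc6, Mcm3, Mcm4 and Mcm5 were called. Mcm6 (ENSMUSG00000026355, chr1:128331590-128359664), a subunit of the replicative helicase, was at 178, 191 and 206 CPM in brain and 119, 117 and 116 in spinal cord at E13.5, while at P7 brain had 105, 110.2 and 83.8 CPM and spinal cord had 129, 122 and 139.7. E13.5 spinal cord was above P7 brain in every library, and P7 spinal cord lay above both. Its differences were 0.70 ± 0.11 (SE, adjusted p = 3.3e-04) at E13.5 and -0.39 ± 0.11 (SE, adjusted p = 0.015) at P7, and the change of -1.10 ± 0.15 (SE, adjusted p = 1.6e-04) was the smallest of the 41. Cdc6 (ENSMUSG00000017499, chr11:98907801-98923940), which loads the helicase at origins, was at 28.3, 33.03 and 35.7 CPM in brain and 12.98, 14.5 and 14.2 in spinal cord at E13.5, while at P7 brain had 15.6, 13.6 and 11.3 CPM and spinal cord had 20.8, 20.9 and 21.5. P7 brain and E13.5 spinal cord overlapped, and P7 spinal cord lay above both. The region difference of Cdc6 was 1.19 ± 0.12 (SE, adjusted p = 1.8e-05) at E13.5 and -0.64 ± 0.12 (SE, adjusted p = 0.0024) at P7. The other helicase subunits, Mcm2, Mcm3, Mcm4, Mcm5 and Mcm7, changed by -1.55, -1.65, -1.47, -1.60 and -1.39, and Cdt1, the partner of Cdc6 in loading, by -1.50.

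Of the firing and clamp genes, Mcm10 and Pcna were called at E13.5 and Gins2 was not, and the region difference fell in all 3. Pcna (ENSMUSG00000027342, chr2:132249162-132253314), the sliding clamp of the polymerases, was at 134, 150.3 and 169.7 CPM in brain and 55.5, 58.1 and 72.6 in spinal cord at E13.5, while at P7 brain had 99.8, 99.8 and 76.5 CPM and spinal cord had 134, 142 and 141. P7 spinal cord reached the E13.5 brain range, with its 2 higher libraries inside it. The age difference of Pcna was -0.72 ± 0.13 (SE, adjusted p = 4.3e-04) in brain and 1.17 ± 0.13 (SE, adjusted p = 5.2e-06) in spinal cord. Mcm10 and Gins2, which act when the helicase is switched on, changed by -1.78 and -1.36.

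The nucleotide supply genes were all called at E13.5 and held the widest change of the region difference. Rrm2 (ENSMUSG00000020649, chr12:24708241-24714146), the small subunit of ribonucleotide reductase, which limits the making of deoxynucleotides, was at 101, 116 and 106 CPM in brain and 30.7, 32.2 and 36.8 in spinal cord at E13.5, while at P7 brain had 50.2, 46.1 and 35.6 CPM and spinal cord had 75.7, 77.6 and 76.9. E13.5 brain was highest, P7 spinal cord came next, and the highest E13.5 spinal cord library just passed the lowest P7 brain library. The region difference of Rrm2 was 1.68 ± 0.12 (SE, adjusted p = 7.2e-07) at E13.5 and -0.81 ± 0.12 (SE, adjusted p = 3.4e-04) at P7, the highest and the lowest of the 41, and the change was -2.49 ± 0.17 (SE, adjusted p = 1.7e-06). Rrm1 (ENSMUSG00000030978, chr7:102441695-102469771), the large subunit of the same enzyme, was at 190.2, 212 and 218 CPM in brain and 86.8, 90.5 and 98.5 in spinal cord at E13.5, while at P7 brain had 135, 134 and 105 CPM and spinal cord had 148, 153 and 154. E13.5 spinal cord was the lowest group, and the 2 P7 groups were close but did not overlap. Its E13.5 difference of 1.16 ± 0.11 (SE, adjusted p = 6.0e-06) and P7 difference of -0.29 ± 0.11 (SE, adjusted p = 0.057) were both smaller in size than those of Rrm2. Tyms, which makes thymidylate, changed by -1.55, and in brain it fell by 1.58 on the log2 scale from E13.5 to P7 while in spinal cord the difference was -0.03 ± 0.12 (SE, adjusted p = 0.84).

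The G1/S regulators were the group with the smallest region differences at E13.5, from 0.66 to 0.74, and none of the 3 was called there. Ccne2 (ENSMUSG00000028212, chr4:11191351-11204779), cyclin E2, was at 33.6, 37.9 and 43.4 CPM in brain and 16.1, 18.2 and 39.5 in spinal cord at E13.5, while at P7 brain had 21.5, 21.8 and 12.9 CPM and spinal cord had 22.5, 22.8 and 26.3. E13.5 spinal cord replicate 3 was inside the E13.5 brain range while the other 2 were far below. The region difference was 0.74 ± 0.29 (SE, adjusted p = 0.066) at E13.5 and -0.38 ± 0.29 (SE, adjusted p = 0.35) at P7, and the change of -1.12 ± 0.40 (SE, adjusted p = 0.044) lost its call under 16 of 22 alternatives. E2f1 (ENSMUSG00000027490, chr2:154559407-154569892), the E2F factor that turns on S-phase genes, was at 16.7, 18.1 and 15.3 CPM in brain and 11.7, 9.11 and 9.62 in spinal cord at E13.5, while at P7 brain had 5.12, 4.56 and 4.33 CPM and spinal cord had 6.67, 7.68 and 7.32. Both P7 groups were below both E13.5 groups. The age difference of E2f1 was -1.73 ± 0.13 (SE, adjusted p = 2.1e-07) in brain, the largest fall of the 41 there, and -0.46 ± 0.13 (SE, adjusted p = 0.0074) in spinal cord. Ccne1 changed by -1.17, and the age difference in spinal cord was -0.10 ± 0.15 (SE, adjusted p = 0.59).

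Lists of other cell cycle genes gave the same direction with smaller shares. Of 58 other mitosis genes 54 were called for a fall of the region difference from E13.5 to P7, against 9.66% of all genes. The median of the 58 was -1.46, led by Cks2 at -2.16 and Anln at -2.12. The 4 genes not called were Cenpk, Cdc25b, Cit and Zwint. Of 49 other replication genes 32 were called for a fall, and the median of the 49 was -1.19. The largest falls were those of Gmnn, which restrains Cdt1, at -2.05 and the thymidine kinase Tk1 at -2.03. Of the origin recognition genes, Orc3, Orc4 and Orc5 had values of -0.22, -0.13 and -0.31, while Orc1, Orc2 and Orc6 reversed by group mean. Mean CPM of Orc1 was 11.1 in brain and 4.68 in spinal cord at E13.5, and 3.50 and 3.97 at P7. In the same order the means were 55.2, 40.1, 57.8 and 71.5 for Orc2 and 38.5, 25.6, 24.5 and 31.9 for Orc6. Of 19 regulators of the E2F, DREAM and B-MYB families 8 were called for a fall, and the median of the 19 was -0.82. E2f2 at -1.92 and Foxm1, a driver of G2 and M genes, at -1.57 led this list. The repressors Rb1, Rbl2 and E2f4 had values of -0.13, -0.18 and -0.11, but not all repressors of the list lay near 0. Mean CPM of Rbl1 was 65.6 in brain and 33.4 in spinal cord at E13.5, and 35.2 and 43.5 at P7. In the same order the means were 33.3, 18.9, 6.50 and 10.6 for E2f7 and 20.6, 12.7, 9.66 and 15.0 for E2f8. No gene of the 3 lists rose in limma, at the adjusted p or at an unadjusted p under 0.05. At P7 1 of the 58, Anln at -1.16, and 1 of the 19, E2f2 at -1.02, were called higher in spinal cord, against 4.35% of all genes. The part of committed and myelinating oligodendrocytes in these P7 values was not tested.

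Some members share sequence with a neighbour or a copy, and the counting is not stated to use strand, so their values are less certain. Exons on the opposite strand overlap those of Gins2 (Gse1, 2758 bases), Kif20a (Cdc23, 1271), Prc1 (Rccd1, 911), Ccne2 (Ints8, 609), Ube2c (Tnnc2, 592), Ccna2 (Exosc9, 510) and Mcm7 (Ap4m1, 321). Tnnc2 was at 0.0554 CPM on average, while Gse1, Cdc23 and Ints8 were at 28.4, 115 and 87.8 CPM, above the members they overlap. Processed pseudogenes near-identical to part of Ccnb1 (Ccnb1-ps and Gm12856, 4.32 and 2.25 CPM) and of Pcna (Pcna-ps2, 14.4 CPM) can share reads with them.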

How the data were processed

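Per the study's methods and the submitters' processing notes, the authors aligned reads with STAR 2.5.0a to mm10 (GRCm38), counted them over GENCODE genes with featureCounts 1.5.0-p1, sharing multi-mapping reads fractionally, and normalised with limma. The library kit was stranded, and the strand setting of the counting is not given in the sources used here. In all 12 deposited columns the authors' CPM are reads over a library size rescaled by a normalization factor. Of these columns 9 sum to no more than CPM can, and the deposited values of the 3 others sum to more and were treated as a signal of the same kind. In all 12 columns values were whole multiples of 1 read (tolerance 0.01), so whole reads were recovered. No column of values was left unused (0), and 3 identifiers listed more than once were kept as given.

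Genes with at least 0.7 CPM in 3 or more libraries were tested on log2(CPM + 0.5) with limma 3.58.1 (R 4.3.3), trend fit, with a mean for each of the 4 groups. Calls needed a Benjamini-Hochberg adjusted p under 0.05 over 18319 genes and more than a 2-fold difference, and log2 differences understate those of low genes. The test was checked on simulated data with a 4-fold change put into P7 brain for 200 genes. Of these limma recovered 191 for the change of the region difference and 198 for the region difference at P7. The check does not cover differences below 2-fold, such as those of the members at P7. Alternatives were other pseudocounts, no filter, TMM and median-ratio scaling, limma-voom, edgeR 4.0.16 and DESeq2 1.42.0 on recovered reads, a replicate block, fits of the compared groups only and leaving out each library. The combination of TMM scaling with no fold threshold was chosen after seeing the data. The members and gene lists were chosen with earlier results of these data known. Given with every library were, in each of 10 roles, the member with the highest mean CPM and the member with the largest change of the region difference. Of other lists up to 2 called genes in each direction with the largest change were given by that change alone, with a few more chosen after their values were seen. Sequences came from RefSeq tables.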

Additional observations from a re-analysis of the deposited data

Results flagged for a closer look

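All 41 genes were marked because the difference between brain and spinal cord at P7 differed from that at E13.5 by a test of the change itself (limma interaction term, adjusted p under 0.05 and more than 2-fold). The values are log2 changes of brain minus spinal cord, and they are a list chosen by theme, not an independent count. For proliferation markers the changes were -1.58 (Mki67) and -1.76 (Top2a). For mitotic cyclins and Cdk1 the changes were -1.99 (Ccna2), -2.00 (Ccnb1), -1.42 (Ccnb2) and -1.75 (Cdk1). For mitotic kinases and checkpoint the changes were -1.67 (Bub1), -1.72 (Bub1b), -1.63 (Aurka), -1.77 (Aurkb), -1.56 (Plk1) and -1.41 (Ttk). For centromere and chromosomal passengers the changes were -1.50 (Cenpa), -1.25 (Cenpe), -1.43 (Cenpf) and -1.86 (Birc5). For spindle and midzone the changes were -1.71 (Kif11), -1.85 (Kif20a), -1.23 (Kif23), -1.70 (Nusap1), -1.85 (Tpx2) and -1.82 (Prc1). For anaphase-promoting complex partners the changes were -1.68 (Cdc20) and -2.21 (Ube2c). For origin licensing the changes were -1.82 (Cdc6), -1.50 (Cdt1), -1.55 (Mcm2), -1.65 (Mcm3), -1.47 (Mcm4), -1.60 (Mcm5), -1.10 (Mcm6) and -1.39 (Mcm7). For origin firing and clamp the changes were -1.78 (Mcm10), -1.36 (Gins2) and -1.89 (Pcna). For nucleotide supply the changes were -1.46 (Rrm1), -2.49 (Rrm2) and -1.55 (Tyms). For G1/S regulators the changes were -1.17 (Ccne1), -1.12 (Ccne2) and -1.27 (E2f1). No library of a group was tested as an outlier, since each group held 3 libraries.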

How the results depend on the processing

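The change of the region difference kept its direction for 41 of 41 genes under every alternative run. The number called ranged from 39 to 41 when 1 library was left out and was 38 with TMM scaling, 35 with median-ratio scaling, 36 with DESeq2 and 40 with edgeR. Ccne2 lost its call under 16 of 22 alternatives, Mcm6 under 4, Ccne1 under 3, Cenpe and Kif23 under 2 and E2f1 under 1. Its median for mitosis genes was -1.51 with TMM, -1.37 with median-ratio scaling and -1.37 with DESeq2, and for replication genes -1.31, -1.18 and -1.2.

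At E13.5, in place of 29, 22 genes were called with median-ratio scaling, 23 with DESeq2 and 27 to 32 with 1 library left out, and the replication median ranged from 0.83, without E13.5 spinal cord replicate 1, to 1.13. At P7 the genes called lower in brain numbered 32 with no fold threshold and 11 with TMM scaling as well, in place of 0. The P7 mitosis median was -0.36 with TMM, -0.31 with median-ratio scaling and -0.31 with DESeq2, and ranged from -0.59 to -0.44 with 1 library left out, the latter without P7 brain replicate 3. The P7 replication median was -0.33, -0.28 and -0.26 under those scalings.

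The age comparison in brain gave 17 calls with TMM, 16 with median-ratio scaling and 17 with DESeq2, and 24 to 35 with 1 library left out. Its mitosis median was -0.95 under each of these scalings and ranged from -1.21 to -1.02 with 1 library left out. Its replication median was -0.99, -0.99 and -0.999. TMM scaling alters the 3 P7 brain libraries alone, by 13.1% to 16.3%.

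The age comparison in spinal cord gave 26 higher and 2 lower genes with no fold threshold, 26 and 2 with TMM scaling as well, and 3 to 6 higher with 1 library left out. Its mitosis median was 0.44 with median-ratio scaling and 0.42 with DESeq2, and its replication median was 0.25 and 0.26, and 0.27 to 0.49 with 1 library left out. Its sign changed with median-ratio scaling for Kif20a, to -0.0024, Bub1, to -0.0014, Cenpa, to -0.016, and Ccne2, to -0.065, and with DESeq2 for Cenpa, to -0.05, and Ccne2, to -0.16. Leaving out 1 library gave Ccne2 values from -0.17, without E13.5 spinal cord replicate 1, to 0.47, and turned Cenpe to 0.08 without that library, Ttk and Tyms to 0.02 and 0.01 without replicate 2, and Gins2 and Ccne1 to 0.16 and 0.05 without replicate 3. With limma-voom Gins2 was at 0.02. At P7 the sign changed for Cenpe, to 0.036 with median-ratio scaling and 0.035 with DESeq2. For these changes the cause was not tested.

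Replicate numbers are shared between groups but nothing in the labels pairs them. Deviations of same-numbered libraries correlated by 0.31, 0.08 and 0.41 between the E13.5 regions and by 0.01, 0.02 and 0.04 between the P7 regions. The mean at E13.5 was 0.27 for the same number and -0.13 for different numbers, and at P7 it was 0.03 and -0.01. The numbers were not taken as pairs in the main fit because the labels give no pairs. With the replicate number as a block 40 genes were called for the change, Ccne2 being lost, and the other counts were 29, 0, 30 and 3, as without it. With P7 replicates 1 and 2 averaged, 40 genes were called for the change and 35 were lower in P7 brain.

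Depth was no close limit, since the lowest member count in a library was 57 reads.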

Other observations

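Replication-dependent histone genes, whose transcripts mostly lack a poly(A) tail and are made in S phase, were measured because total RNA was sequenced, and they were looked at after the values were seen. Their summed CPM over 68 genes at E13.5 was 5599, 7702 and 13958 in the brain libraries against 1713, 2217 and 19235 in those of spinal cord, and at P7 it was 2884, 2924 and 1675 against 4279, 4079 and 3691. E13.5 spinal cord replicate 3 was above every other library, and the other E13.5 spinal cord libraries were among the lowest. E13.5 brain replicate 3 came next, with 82.4% of its reads in protein-coding genes. It was kept in the fit without the spinal cord library, so that fit treats the regions unevenly, and leaving out both was not tested. With all libraries limma called 0 of 65 tested histone genes for the region difference at either age or for its change, with 2, 2 and 7 at an unadjusted p under 0.05 and a median change of -1.77. Without E13.5 spinal cord replicate 3, a choice made after seeing these values, 62 were higher in brain at E13.5, as were 4.07% of all genes in that fit, 2 were lower in brain at P7, against 4.39%, and the region difference fell for 63, against 13.1%, with a median of -2.88. From E13.5 to P7, 40 were lower in brain with all libraries and 62 without that library, against 16.7% and 16.9% of all genes, and 1 and 42 were higher in spinal cord, against 16.9% and 18.5%. Protein-coding genes took 40.9% of the reads of E13.5 spinal cord replicate 3 and Gm42418 took 31.1%, and the part of its RNA content in the histone values was not tested.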
